A study of Mus musculus with 5 samples.

Results

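Genes of the endoplasmic reticulum (ER) folding machinery, of the unfolded protein response and of the route out of the ER were followed in fibroblasts of the mouse mammary gland. The set is a list of gene names, put together with earlier results of these data known. It holds 34 genes of the 45706 rows of the expression table, and every one was found under its own symbol. The set spans 8 chaperones and co-chaperones of the Hsp70 and Hsp90 type, 5 lectin chaperones and disulfide isomerases, 6 sensors and transcription factors, 4 genes of ER-associated degradation, 3 of the translocon, 5 of the COPII coat and 3 KDEL receptors.

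RNA was sequenced from PDGFRa-positive cells sorted from mammary glands 4 and 5 of Balb/c mice, with 3 libraries from mice at day 6 after weaning (involution day 6) and 2 from nulliparous mice. PDGFRa is a surface receptor used to sort fibroblasts. All groups shared the strain, the glands, the sort and freezing before RNA extraction. The groups differ in pregnancy and lactation as well as in weaning, and these cannot be told apart. The labels give no genetic change, no agent and no age. How many mice went into a library is not given in the sources used here.

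Secreted and membrane proteins enter the ER through the translocon, fold there with the help of chaperones, and leave in COPII-coated vesicles, while KDEL receptors bring escaped chaperones back from the Golgi. When unfolded proteins accumulate, the sensors IRE1, PERK and ATF6 start the unfolded protein response, which raises chaperone and degradation genes and slows translation. Fibroblasts fold and ship procollagen through it.

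The unlogged values, less the offset of the table, summed to between 40993246 and 43002133 units in the involution libraries and to 37564473 and 38947109 units in the nulliparous libraries. Markers of the sorted cells were abundant in all 5 libraries. Pdgfra stood at log2 values of 15.69 to 16.09 in involution and 15.87 and 15.92 in nulliparous libraries, and the 8 fibroblast markers summed to between 4383172 and 5710338 units in involution and to 4125293 and 3972072 units in nulliparous libraries. RNA of marker genes of other cells was also present. The 12 plasma cell markers summed to 42941, 25985 and 18434 units in involution replicates 1, 2 and 3 and to 15818 and 11716 units in nulliparous replicates 1 and 2, and the 12 epithelial markers to 16535, 8549 and 5533 against 34017 and 15630 units. The 10 markers of milk-secreting epithelium summed to 107658, 54937 and 36345 against 31414 and 16957 units, the 12 macrophage markers to 16561, 10208 and 5887 against 5572 and 2749 units, and the 8 endothelial markers to 12831, 8513 and 8378 against 13718 and 10237 units. By limma the most abundant and the lowest-p gene of each list differed by 0.24 (Col3a1) and 0.59 (Lum) for fibroblasts, -0.16 (Sdc1) and 4.87 (Jchain) for plasma cells, 1.03 (Xdh) and 4.50 (Wap) for milk-secreting epithelium, -0.26 (Esr1) and -1.99 (Krt19) for luminal and basal epithelium, 2.12 (Lyz2) and 1.64 (Adgre1) for macrophages, and -0.17 (Tek) and -1.01 (Vwf) for endothelium. Of these, Jchain, Xdh, Wap, Lyz2 and Adgre1 passed. Every marker had reads in at least 1 library. In nulliparous replicate 2 most of the plasma cell, milk-secreting and endothelial sums came from Sdc1, Xdh and Tek, at log2 values of 13.28, 13.90 and 12.67. Jchain, Csn2 and Cdh5 of the same lists stood at 5.94, 7.72 and 9.07 there. Whether Sdc1, Xdh and Tek RNA came from the sorted cells was not tested, so these sums do not measure the share of other cells. A lower value in bulk RNA can come from fewer cells of a type or from less RNA per cell, and these cannot be told apart here.

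Libraries of the same group stood apart in heat shock genes. The cytosolic heat shock gene Hspa1a had log2 values of 12.35, 11.86 and 13.68 in involution replicates 1, 2 and 3, and 12.96 and 15.46 in nulliparous replicates 1 and 2. Dnajb1, a co-chaperone gene of the same response, had 12.41, 12.37 and 13.40 in involution and 11.77 and 14.35 in nulliparous libraries. Involution replicate 3 and nulliparous replicate 2 were the highest of their groups for both genes. The 14 immediate-early and heat shock genes together summed to 780641, 651577 and 861349 units in involution and to 493431 and 1078199 units in nulliparous libraries. Of the 14 genes 0 passed between the groups in limma (1 at an unadjusted p under 0.05), with Egr1, the most abundant, at 0.18 and Hspa1b, of the lowest p, at -1.87. The differences of the genes that follow these libraries are also given without them.

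All 34 genes lay far above the value of a row without reads, 3.57. Per kilobase of exon, on the unlogged scale less the offset, the calreticulin gene Calr and the BiP gene Hspa5 had the highest levels of the set, as the plot of levels per exonic length shows. Calr averaged 15800 units per kilobase in involution and 13300 in nulliparous libraries, and Hspa5 averaged 14000 and 15400 units per kilobase in the same order. The disulfide isomerase gene Pdia3 followed with 11000 and 9340, and the GRP94 gene Hsp90b1 with 6760 and 6000 units per kilobase. At the low end stood Sec23b, at 243 and 303, and the genes of the 3 sensors, Ern1 at 310 and 324, Atf6 at 363 and 355 and Eif2ak3 at 410 and 405 units per kilobase. The involution and nulliparous libraries overlapped for each of these sensors. The levels of Calr and Hspa5, next to each other in this order, overlapped between the genes, at 15300 to 16400 in involution and 11900 to 14600 in nulliparous libraries for Calr and 10300 to 20000 and 10900 to 20000 units per kilobase for Hspa5.

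**Figure D1:**
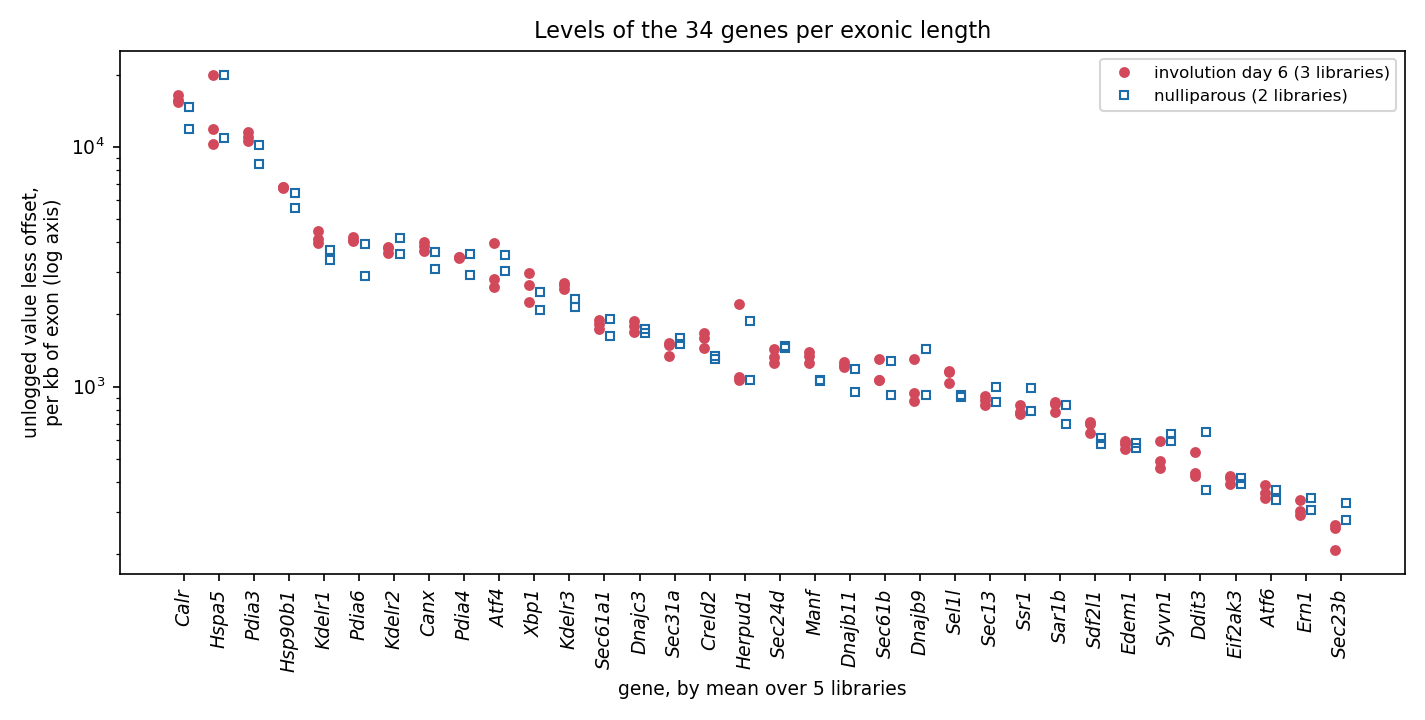
Level of each of the 34 genes per kilobase of exon, as the unlogged value less the offset, on a log axis. Each filled circle is 1 of 3 involution libraries and each open square 1 of 2 nulliparous libraries, and genes run from the highest to the lowest mean. Calr and Hspa5 lead and Sec23b is lowest, and single libraries of Hspa5, Herpud1, Dnajb9, Atf4 and Ddit3 lie well above the others.

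The comparison is between fibroblasts of the regressing gland and fibroblasts of glands that never lactated. For this machinery the answer was small differences: 1 of the 34 genes, Manf, rose past an adjusted p of 0.05 and 0 fell. Among all 15912 genes tested, 11.3% passed in either direction, 6.65% higher and 4.66% lower. Differences of the 34 genes ran from -0.32 to 0.33 on the log2 scale, with a median of 0.05 against -0.03 over all genes tested. With libraries scaled to equal totals the medians were -0.09 and -0.16, the share of calls that were higher was 31.7% in place of 58.8%, and 0 of the 34 genes passed. At an unadjusted p under 0.05 there were 5 of the 34 genes, which is 14.7%, against 28.9% of all genes. These were Manf, Creld2, Sel1l, Kdelr1 and Kdelr3, all higher at involution. The 95% interval of the difference lay within a 2-fold change either way for 33 of the 34 genes and within 1.5-fold for 28, against 73.3% and 42.9% of all genes. The exception at 2-fold was Hspa5. All genes tested include genes of low values, where the spread that the test assumes is larger. The prior SD was 0.103 for Manf and 0.302 for Fcgr1, a macrophage marker of low values. It was also larger at high values, at 0.187 for Hspa5, 0.165 for Calr, 0.14 for Hsp90b1 and 1.175 for Col3a1. For Calr and Hsp90b1 it was above the residual SD of the gene, 0.126 and 0.085, and for Hspa5 below it, 0.548. The shares of narrow intervals were not set against genes of like level. Groups did not overlap for 14 of the 34 genes, which is 41.2%, against 47.0% of all genes tested. Without overlap 12 of the 34 were higher at involution (35.3%, against 21.9% of all genes) and 2, Sec23b and Sec24d, were lower (5.88%, against 25.1%). All 34 passed the filter on low values.

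**Figure D2:**
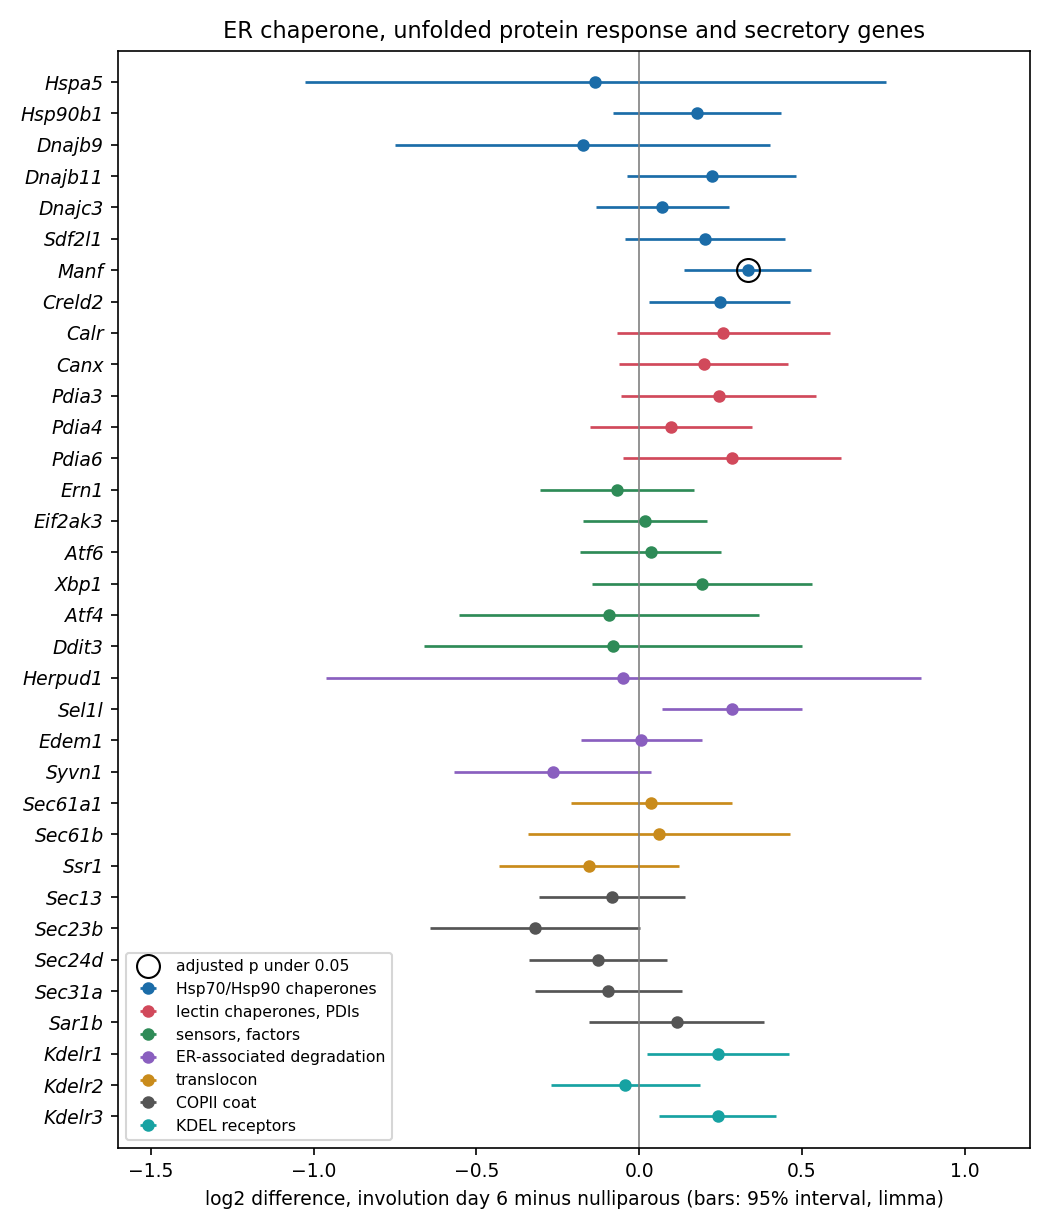
Log2 difference of each of the 34 genes, involution day 6 minus nulliparous, with its 95% interval from limma (3 and 2 libraries), coloured by role. The circled gene, Manf, is the 1 with an adjusted p under 0.05, and the widest intervals belong to Hspa5 and Herpud1.

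Among the chaperones of the ER lumen, the master chaperone gene Hspa5, whose product BiP binds unfolded chains and holds the sensors silent, had log2 values of 15.60, 15.41 and 16.37 in involution replicates 1, 2 and 3 and 15.49 and 16.37 in nulliparous replicates 1 and 2. A high library stood in each group and the groups overlapped. The difference was -0.14 ± 0.37 (log2 ± SE, n = 3 and 2; 95% interval -1.03 to 0.76; adjusted p = 0.839 in limma). Without involution replicate 3 and nulliparous replicate 2 it was 0.02. Hsp90b1, which encodes the Hsp90 of the ER, had 14.73, 14.74 and 14.74 in involution and 14.66 and 14.45 in nulliparous libraries. Its groups did not overlap, yet its difference of 0.18 ± 0.11 did not pass (95% interval -0.08 to 0.43; adjusted p = 0.325 in limma). In the annotation 15.7% of its exonic bases also belong to other genes, among them a pseudogene on the opposite strand, and the library kit did not mark strand.

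Manf encodes a small secreted protein that is released under ER stress and binds BiP. It lies on chromosome 9 from 106838312 to 106891979 on the minus strand (GRCm38). It had log2 values of 12.10, 12.21 and 12.27 in involution and 11.85 and 11.87 in nulliparous libraries, so that all involution libraries were above both nulliparous libraries. The rise was 0.33 ± 0.08 (1.26-fold, 95% interval 0.14 to 0.53, adjusted p = 0.0496 in limma). Its call rests on small margins: it did not pass without any 1 of the involution libraries, nor with total scaling (a difference of 0.19, adjusted p = 0.197 in limma) or without a trend in the prior variance (adjusted p = 0.117). A fit without a nulliparous library leaves 1 in that group, so no p is given for it. Over the alternatives that keep both nulliparous libraries the adjusted p of Manf ran from 0.0433 to 0.197. Of its exonic bases 9.25% are shared with other genes.

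The other lumenal members are co-chaperones and folding factors. Creld2, a disulfide exchange protein, was higher by 0.25 ± 0.09 with groups that did not overlap (adjusted p = 0.131 in limma). Dnajb11 and Dnajc3, J-domain partners of BiP, differed by 0.22 and 0.07, and Sdf2l1, a component of the BiP cycle, by 0.20. Dnajb9, the J-domain protein that recruits BiP to IRE1, had 11.23, 11.13 and 11.70 in involution and 11.21 and 11.85 in nulliparous libraries. As for Hspa5, a single library of each group was high, and the difference was -0.17 ± 0.24. In all, 1 of these 8 genes passed and 6 of the 8 differences were positive.

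The promoters were searched for exact matches to the ER stress element, the site at which ATF6 acts together with NF-Y. The element reads CCAAT, any 9 bases and CCACG, and the shorter ER stress element II reads ATTGG, any 1 base and CCACG. Near matches were not counted, so a gene without a match can still hold a variant of the element. Both strands were searched from 250 bases before to 50 after each start in RefSeq promoters of GRCm38.p6, which hold 30 of the 34 genes (not Manf, Atf6, Sec61a1 and Kdelr2). The first element was found for 8 of the 30 genes and in 0.119% of all 32851 promoters, the second for 2 of the 30 and in 0.0365%. The 30 genes have 32 promoters in this set. The list was made to hold targets of the unfolded protein response, so a share above that of all promoters was built in and is not a result. The UPRE letters TGACGTGG, of the ATF6 and XBP1 site, were found for Sec24d and Kdelr3 and in 0.676% of promoters. The 250 bases before the start are shown for 4 genes, a pair whose RNA varied most between libraries of 1 group (Hspa5 and Herpud1) and a pair of abundant chaperones that did not share that pattern (Hsp90b1 and Calr). Capitals mark the element, on the strand of the gene and 5′ to 3′. Hspa5 is at chr2:34771840-34772089 (+), Herpud1 at chr8:94386179-94386428 (+), Hsp90b1 at chr10:86705445-86705694 (-) and Calr at chr8:84846932-84847181 (-).
Hspa5: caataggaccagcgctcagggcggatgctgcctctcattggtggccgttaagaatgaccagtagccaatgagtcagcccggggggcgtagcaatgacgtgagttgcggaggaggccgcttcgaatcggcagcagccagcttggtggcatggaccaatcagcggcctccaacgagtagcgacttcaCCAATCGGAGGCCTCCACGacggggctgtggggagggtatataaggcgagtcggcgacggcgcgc
Herpud1: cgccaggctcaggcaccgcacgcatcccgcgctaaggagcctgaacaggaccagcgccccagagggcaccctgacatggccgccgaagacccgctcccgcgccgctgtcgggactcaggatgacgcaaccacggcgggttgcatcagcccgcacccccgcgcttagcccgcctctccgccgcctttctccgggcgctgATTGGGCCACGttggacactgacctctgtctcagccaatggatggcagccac
Hsp90b1: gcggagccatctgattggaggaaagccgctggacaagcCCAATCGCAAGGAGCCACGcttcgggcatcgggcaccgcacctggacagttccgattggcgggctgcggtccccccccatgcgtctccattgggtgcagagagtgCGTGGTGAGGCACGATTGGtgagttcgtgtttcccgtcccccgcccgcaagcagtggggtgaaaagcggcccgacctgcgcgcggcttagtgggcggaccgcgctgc
Calr: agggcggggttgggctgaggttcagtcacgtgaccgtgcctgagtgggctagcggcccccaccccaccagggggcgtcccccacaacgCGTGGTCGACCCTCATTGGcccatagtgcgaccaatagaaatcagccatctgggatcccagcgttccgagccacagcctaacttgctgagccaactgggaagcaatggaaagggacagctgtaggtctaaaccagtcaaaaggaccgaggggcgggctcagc
Hspa5 holds an exact match to the element 65 bases before its start, and Hsp90b1 holds matches 212 and 107 bases before, 1 on each strand. Calr holds a match on the opposite strand 162 bases before its start, and Herpud1 holds the element II 52 bases before. The elements of the other 6 genes, in the orientation of the letters above, are printed to show how the spacer between the fixed letters varies.
Canx: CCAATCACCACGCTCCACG
Pdia6: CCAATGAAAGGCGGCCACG
Dnajc3: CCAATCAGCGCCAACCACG
Creld2: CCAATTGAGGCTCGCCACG
Syvn1: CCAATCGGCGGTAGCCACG
Dnajb11: ATTGGCCCACG
Differences of the 10 genes with an exact match to either element had a median of 0.19, and those of the 20 genes without a match had a median of 0.01. Without nulliparous replicate 2, the lowest library for 6 of the 10, the medians were 0.08 and 0.03. The range was -0.27 to 0.28 with an element and -0.32 to 0.29 without, and 0 of either passed the test. A match describes letters in these windows and does not show that a factor binds there.

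The lectin chaperones and disulfide isomerases fold glycoproteins and form their disulfide bonds. Calr had log2 values of 15.53, 15.47 and 15.43 in involution and 15.36 and 15.07 in nulliparous libraries. The involution libraries were all higher, by 0.26 ± 0.13, without passing (95% interval -0.07 to 0.58; adjusted p = 0.264 in limma). Canx, the membrane-bound relative calnexin, differed by 0.20, and the isomerase genes Pdia3, Pdia4 and Pdia6 by 0.24, 0.10 and 0.28. In this group 0 of 5 passed, all 5 differences were positive (Pdia4 stood at -0.05 with total scaling), and groups did not overlap for 4 of the 5, where 47.0% of all genes did not overlap. Nulliparous replicate 2 was the lowest of the 5 libraries for each of the 5 genes, by 0.24 to 0.44 below nulliparous replicate 1. Without that library the differences shrank to 0.11 for Calr, 0.11 for Pdia3, 0.08 for Canx and 0.07 for Pdia6, and Pdia4 stood at -0.05.

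Sensors and transcription factors showed no call among 6 genes, and groups overlapped for each of the 6. Xbp1 encodes the factor whose mRNA IRE1 splices, and gene-level values do not separate the spliced form. It had 13.24, 13.07 and 12.84 in involution and 12.98 and 12.73 in nulliparous libraries, a difference of 0.19 ± 0.14 (95% interval -0.15 to 0.53; adjusted p = 0.412 in limma). Atf4, the factor translated when PERK slows protein synthesis, had 12.70, 12.59 and 13.19 in involution and 12.81 and 13.03 in nulliparous libraries. Its difference was -0.09 ± 0.19 (95% interval -0.55 to 0.37; adjusted p = 0.786 in limma). Ddit3, the gene of the death-linked factor CHOP, had 9.57, 9.53 and 9.86 in involution and 9.34 and 10.13 in nulliparous libraries, where the nulliparous pair lay below and above all involution libraries. Its difference was -0.08 ± 0.24 (95% interval -0.66 to 0.50; adjusted p = 0.851 in limma), and 10.9% of its exonic bases are shared with other genes. The sensor genes themselves hardly differed: Ern1 (IRE1) by -0.07 (95% interval -0.30 to 0.17), Eif2ak3 (PERK) by 0.02 (-0.17 to 0.21) and Atf6 by 0.03 (-0.18 to 0.25).

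Genes of ER-associated degradation, which pulls misfolded proteins out for the proteasome, did not pass either. Herpud1, a stress-induced scaffold of the degradation complex, had 11.33, 11.28 and 12.33 in involution and 11.28 and 12.10 in nulliparous libraries. It had a high library in each group and a difference of -0.05 ± 0.38 (95% interval -0.96 to 0.87; adjusted p = 0.947 in limma). Sel1l and Syvn1 encode the adaptor and the ubiquitin ligase of the same complex and differed in opposite directions, Sel1l by 0.29 ± 0.09 (adjusted p = 0.0945 in limma) and Syvn1 by -0.27 ± 0.12 (adjusted p = 0.221). Edem1, a lectin that marks misfolded glycoproteins, differed by 0.01 (95% interval -0.18 to 0.19).

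Of the traffic genes 0 of 11 passed. Of the translocon, the pore subunit genes Sec61a1 and Sec61b differed by 0.04 and 0.06, and Ssr1, a subunit of the translocon-associated complex, by -0.15. Of the COPII coat, 4 of 5 differences were negative: Sec23b, an inner coat subunit, by -0.32 ± 0.13 (95% interval -0.64 to 0.00; adjusted p = 0.177 in limma), the cargo adaptor gene Sec24d by -0.12, and the outer coat genes Sec31a and Sec13 by -0.10 and -0.08. Sar1b, the GTPase that starts the coat, was higher by 0.12. For Sec23b and Sec24d all involution libraries lay below both nulliparous libraries, at 10.37 to 10.71 against 10.79 and 11.01 for Sec23b. KDEL receptors retrieve chaperones that carry the retention signal. Kdelr1 and Kdelr3 were each higher by 0.24, with groups that did not overlap (adjusted p = 0.142 and 0.0942 in limma), while Kdelr2 differed by -0.04. Whether these receptors differ among themselves in response was not tested.

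**Figure D3:**
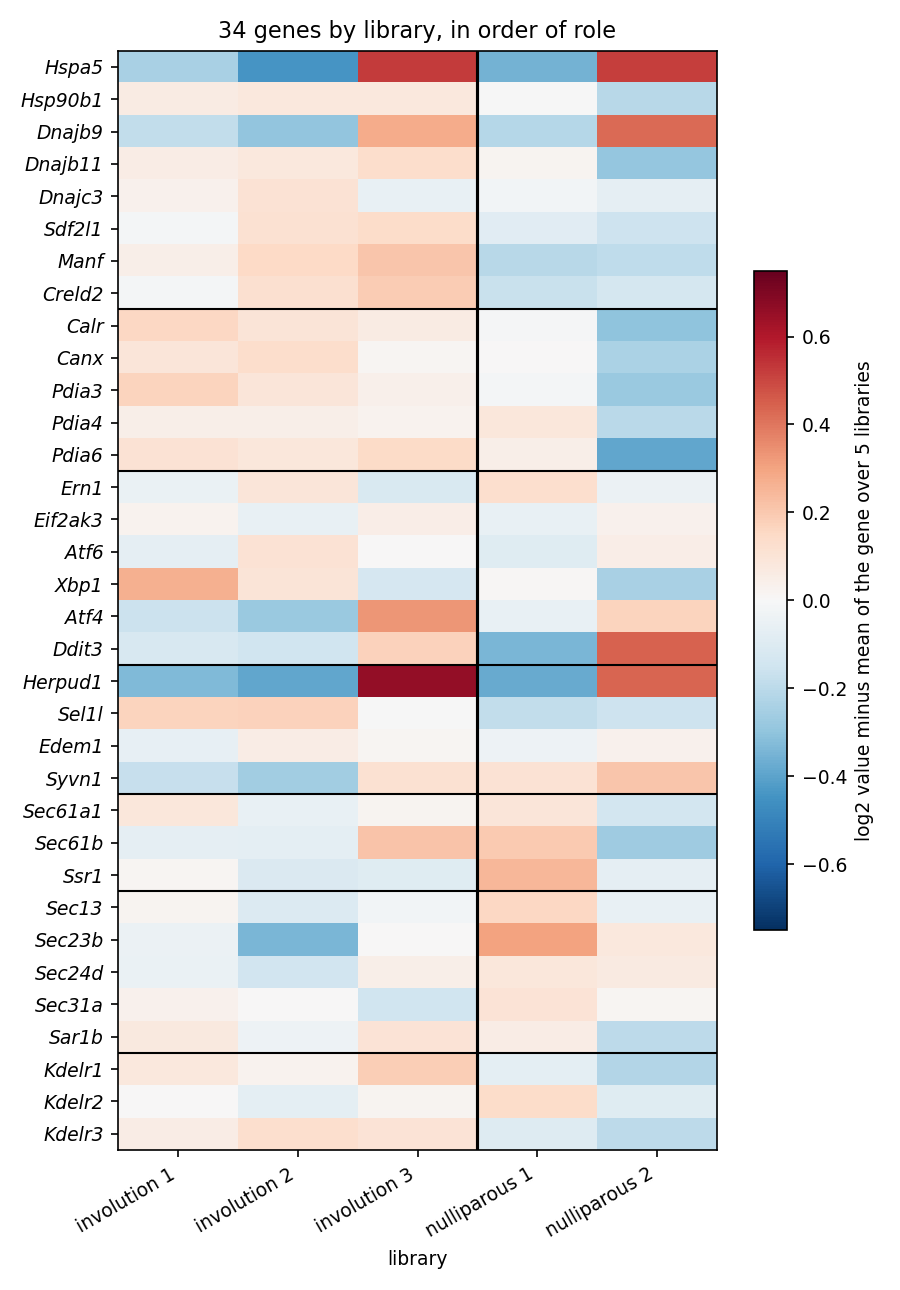
Log2 value of each of the 34 genes in each library minus the mean of that gene over the 5 libraries, in order of role, with involution libraries left of the black line and nulliparous libraries right of it. Hspa5, Dnajb9, Atf4, Ddit3 and Herpud1 are high in involution replicate 3 and nulliparous replicate 2, and the lectin chaperones and isomerases are low in nulliparous replicate 2.

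Differences between libraries of the same group were larger than those between the groups for a few stress-responsive genes. Herpud1 in involution replicate 3 was 2.03-fold the geometric mean of replicates 1 and 2, and in nulliparous replicate 2 it was 1.76-fold that in replicate 1. For Hspa5 these ratios were 1.82 and 1.83, for Dnajb9 1.43 and 1.56, for Atf4 1.46 and 1.17, and for Ddit3 1.24 and 1.72. These 5 were the members in which both gaps exceeded 0.2 on the log2 scale, a limit chosen after seeing the values. They make up 14.7% of the 34 genes, against 8.27% of all genes tested. Herpud1 (0.59) and Hspa5 (0.55) had the largest residual SD of the 34 genes. These values were reached by 6.49% and 7.43% of all genes tested. Among the 7068 genes with means between the lowest and highest of the 34 genes, they were reached by 1.67% and 1.85%. Hspa5 lay at the top of that range, so the 7068 genes are not matched to its level. The pattern was not shared by the whole machinery. Over the 34 genes the median gap was 0.05 in the involution group and -0.12 in the nulliparous group, and for 16 of the 34 genes nulliparous replicate 2 was the lowest of all 5 libraries, against 20.1% of all genes tested (47.1% of the set). Xbp1 ran the other way, lower by 0.31 in involution replicate 3 and by 0.25 in nulliparous replicate 2. In the immediate-early and heat shock list, both gaps exceeded 0.2 for 10 of 14 genes, with medians of 0.50 and 1.32 over the list. The others were the immediate-early genes Fos, Junb, Egr1 and Jun. Their gaps were 0.02 to 0.16 in the involution group and 0.52 to 0.95 in the nulliparous group. The same libraries were low in most markers of other cells: the median gaps were -1.96 and -2.59 over the markers of milk-secreting epithelium, -1.86 and -1.32 over luminal and basal epithelium, -1.02 and -0.73 over macrophages, -1.05 and -1.35 over endothelium and -0.88 and -0.30 over plasma cells. The part of the heat shock genes and of other cells in the values of Hspa5, Herpud1, Dnajb9, Atf4 and Ddit3 was not tested. Without both libraries the differences between involution and nulliparous were 0.02 for Hspa5, 0.02 for Herpud1, -0.03 for Dnajb9, -0.16 for Atf4 and 0.21 for Ddit3. That comparison leaves 1 nulliparous library, so the spread of that group is not measured and calls are not given.

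**Figure D4:**
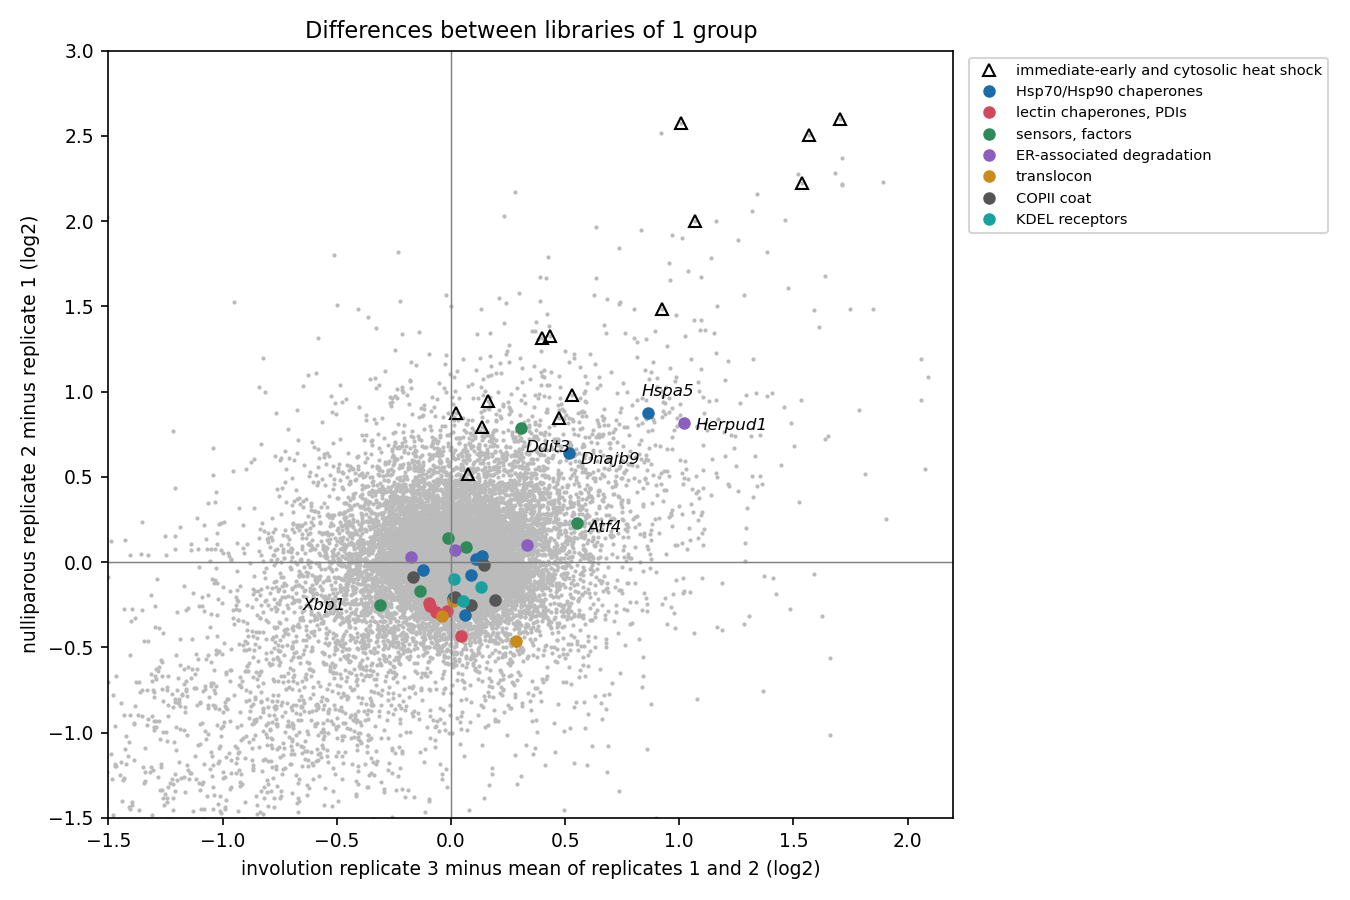
Gap between libraries of 1 group on the log2 scale: involution replicate 3 minus the mean of replicates 1 and 2 (horizontal) and nulliparous replicate 2 minus replicate 1 (vertical). Coloured points are the 34 genes by role, open triangles the 14 immediate-early and heat shock genes and grey points all 15912 genes tested, of which 292 lie beyond the axes. Hspa5, Herpud1, Dnajb9, Ddit3 and Atf4 lie to the upper right, on the side of the heat shock genes, and most of the other coloured points lie below 0 on the vertical axis.

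Of 130 other genes of these pathways, listed by role, 3 rose and 2 fell, where 11.3% of all genes passed, and their median difference was 0.03. Among 24 other chaperones and folding enzymes, Pdia5, a disulfide isomerase, rose by 0.73 ± 0.10 (adjusted p = 0.00907 in limma), and Sil1, the exchange factor of BiP, rose by 0.51 ± 0.09 (adjusted p = 0.0179). Txndc11, a thioredoxin-domain protein of the ER membrane, fell by 0.38 ± 0.09 (adjusted p = 0.0466 in limma), so that folding enzymes moved in both directions. Pdia5, Sil1 and Txndc11 each missed the threshold under some alternatives. Some alternatives leave 1 nulliparous library, so passes are not counted. Over all 14 alternatives the differences ran from 0.59 to 0.81 for Pdia5, from 0.37 to 0.55 for Sil1 and from -0.52 to -0.32 for Txndc11. Sil1 was lost without involution replicate 2 and Txndc11 without any 1 involution library. Fits without a nulliparous replicate leave 1 library in that group, so its spread is not measured there and calls are not given.

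Among 18 genes of the PERK and ATF4 branch, Ddit4, an inhibitor of mTORC1 signalling, fell by 0.97 ± 0.12 (adjusted p = 0.00671 in limma). It had 8.89, 8.71 and 8.95 in involution and 9.78 and 9.87 in nulliparous libraries. Under every alternative that keeps both nulliparous libraries Ddit4 passed. The other 17 did not pass. At an unadjusted p under 0.05 there were 6 of the 18, which is 33.3%, against 28.9% of all genes. Beside Ddit4 these were Slc7a11 (1.07, adjusted p = 0.0617 in limma) and Slc3a2 (0.34, adjusted p = 0.0529), the subunits of a cystine transporter, Nupr1 (0.70, adjusted p = 0.0532), Chac1 (0.94, adjusted p = 0.127), which breaks down glutathione, and Atf5 (-0.36, adjusted p = 0.121). The remaining genes of the list differed by -0.25 (Trib3) to 0.34 (Cebpb). These genes were named after their values were seen. Slc7a11, at log2 values of 4.79 to 6.36, and Chac1, at 3.96 to 5.41, were low against the value of 3.57 of a row without reads. The part of other cells in their values was not tested. Ppp1r15a, which restores translation after stress, had 13.37, 13.08 and 14.08 in involution and 12.87 and 13.99 in nulliparous libraries, again with a high library in each group. It was 1 of 5 genes of the 130 in which both gaps between libraries exceeded 0.2, which is 3.85% against 8.27% of all genes, and the others were Atf3, Cebpb, Creb3l3 and Cdnf.

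Of 20 other genes of ER-associated degradation, Derl3, a derlin of the retrotranslocation channel, rose by 1.91 ± 0.36 (adjusted p = 0.0232 in limma). It had 7.54, 7.93 and 6.85 in involution and 5.78 and 5.27 in nulliparous libraries. The filter of 100 units left it untested. Derl3 was lost with no filter (adjusted p = 0.0966 in limma) and without involution replicate 1 or 2. Calls without a nulliparous replicate, which leaves 1 library in that group, are not given. The immunoglobulin gene Igha had 14.16, 12.94 and 12.05 in involution and 8.05 and 6.2 in nulliparous libraries, and Jchain, which joins IgA, 12.20, 11.09 and 10.11 against 6.58 and 5.94. Of 11 plasma cell markers tested 4 rose and 1 fell, and their part in the Derl3 value was not tested. In the other lists no gene passed: Mbtps1, a protease that cleaves ATF6, differed by -0.27 among 8 genes of the ATF6 family (adjusted p = 0.0983 in limma), Sec61a2 by -0.33 among 25 of the translocon, signal peptidase and glycosylation (adjusted p = 0.0848), Sec24c by -0.24 among 14 of the COPII coat and export sites (adjusted p = 0.131), and the COPI gene Copz2 by 0.19 among 21 cargo receptors and COPI subunits (adjusted p = 0.157). At an unadjusted p under 0.05 these 4 lists held 2, 3, 1 and 2 genes, which is 25.0%, 12.0%, 7.14% and 9.52%, against 28.9% of all genes. With total scaling Mbtps1, Sec61a2 and Sec24c passed as lower.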

How the data were processed

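RNA was sequenced from sorted PDGFRa-positive cells, with 3 involution day 6 and 2 nulliparous libraries. The labels' protocols name a TruSeq library kit that does not mark strand. Per the submitters' processing notes, reads were aligned with STAR 2.4.2a to GRCm38. How reads were counted, on which annotation, and how values were scaled and offset was not stated in any label or header. The values the authors deposited are log2 values per gene. Rows without reads stand at 3.57 and correspond to an offset of 11.85 on the unlogged scale, so log2 differences understate changes of low genes. They are not counts, and the depth in reads is unknown. A row was tested where its mean log2 value was at least 4.45, which is 10 units above the offset, and this left 15912 of 45706 rows. Involution day 6 was compared with nulliparous in limma 3.58.1 (R 4.3.3) with a trend in the prior variance, two-sided, with Benjamini-Hochberg adjustment over all genes tested and a threshold of 0.05. The test was run on simulated data with independent spread for each gene and library. These data lack deviations shared between libraries, so false calls from such deviations were not checked. Replicates are separate samples by the labels, and p-values measure the spread between these samples. Exon lengths, overlaps and coordinates came from GENCODE M21 and promoters from RefSeq. Named were all 34 genes, of each other pathway list the passing genes with the smallest p (at most 3, or 1 where none passed), and of each marker list the most abundant and the lowest-p gene; Igha, Hspa1a and Dnajb1 were added after their values were seen. The 34 genes and all lists were chosen with earlier results of these data known. Alternatives changed the filter, prior, scaling, offset, replicate block and libraries. Those without a nulliparous library leave 1 in that group, so its spread is not measured there.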

Additional observations from a re-analysis of the deposited data

How the results depend on the processing

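The count of 1 of the 34 genes higher and 0 lower was kept with a filter of 100 units above the offset and with median centring. It was 0 higher with no filter other than on rows without reads, without a trend in the prior variance, with a robust prior, with total scaling, with the offset removed and 1 added, and without any 1 involution library. Fits without a nulliparous library leave 1 in that group, so its spread is not measured there. Their calls for the 34 genes and the other pathway genes are not given. The range of calls over all genes without 1 library, given below, includes these fits. Its low ends come from such a fit and cannot be set against the other counts. Calls over all genes were 322 higher and 235 lower with no filter, 686 and 482 without a trend, and 803 and 1731 with total scaling, against 1058 and 742. Without 1 library they ran from 296 to 786 higher and 208 to 483 lower, fewest without nulliparous replicate 1. The other pathway genes gave 3 higher and 2 lower, and 5 and 1 with median centring. Their lower count was 1 with no filter or without a trend, and 10 with total scaling. The higher counts of those settings are not given here. The median of the 34 differences was 0.05, but -0.092 with total scaling, and ran from 0.038 to 0.12 without 1 library.

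Replicate numbers do not pair these samples by the labels. Deviations from the group means of same-numbered libraries correlated at 0.577 and 0.063 over 15912 genes. Those of involution replicate 3 and nulliparous replicate 2 correlated at 0.51. With 2 nulliparous libraries, the deviation of 1 is minus that of the other, so these values cannot test a pairing. With a replicate block 2 of the 34 genes rose (Manf 0.30, Sel1l 0.34) and 2 fell (Syvn1 -0.38, Sec23b -0.38), 8 and 4 of the other pathway genes and 1817 and 1449 of all genes were higher and lower, and Eif2ak3 stood at -0.004 and Sec61b at -0.035.

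Of 476 differences over 14 alternatives 41 changed sign, in 17 of the 34 genes, none of which passed in the comparison as reported. Total scaling shifted the log2 values by -0.082, -0.069 and -0.013 in involution and by 0.113 and 0.061 in nulliparous libraries. This lowers the differences of genes far above the offset nearly alike. With total scaling the sign changed for Dnajc3 (-0.071), Pdia4 (-0.045), Eif2ak3 (-0.12), Atf6 (-0.11), Edem1 (-0.14), Sec61a1 (-0.10), Sec61b (-0.08) and Sar1b (-0.024). The cause of the other changes of sign was not tested. Without 1 library, ranges were -0.57 to 0.30 for Hspa5, -0.49 to 0.15 for Dnajb9, -0.047 to 0.24 for Pdia4, -0.15 to 0.017 for Ern1, -0.026 to 0.062 for Eif2ak3, -0.036 to 0.10 for Atf6, -0.28 to 0.027 for Atf4, -0.47 to 0.31 for Ddit3, -0.46 to 0.36 for Herpud1, -0.031 to 0.043 for Edem1, -0.075 to 0.15 for Sec61a1, -0.17 to 0.29 for Sec61b, -0.31 to 0.004 for Ssr1, -0.19 to 0.02 for Sec13, -0.009 to 0.24 for Sar1b and -0.15 to 0.072 for Kdelr2. Without both involution replicate 3 and nulliparous replicate 2, chosen after seeing the data, signs changed for Hspa5 (0.015), Pdia4 (-0.04), Ddit3 (0.21), Herpud1 (0.02), Sec61a1 (-0.078), Sec61b (-0.27) and Sar1b (-0.037), while Atf6 stood at 0.11. This leaves 1 nulliparous library, so calls are not given. With 3 and 2 libraries and a high library in each group, the interval of Hspa5 ran from -1.03 to 0.76.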

Other observations

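Neither of 2 other ER genes beyond the 34 passed. P4hb, the disulfide isomerase that is also a subunit of prolyl 4-hydroxylase, had log2 values of 15.61, 15.45 and 15.52 in involution and 15.22 and 14.98 in nulliparous libraries. Its difference of 0.42 ± 0.13 did not pass (adjusted p = 0.0921 in limma), though the groups did not overlap. Hyou1, the large Hsp70 relative of the ER lumen, had 12.72, 12.64 and 12.78 in involution and 13.03 and 12.91 in nulliparous libraries and differed by -0.26 (adjusted p = 0.108 in limma), opposite in sign to Hsp90b1. P4hb and Hyou1 were chosen after their values were seen.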
